A study of Mus musculus with 9 samples.

Results

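The prostaglandin and leukotriene genes described here were 10 genes of the eicosanoid pathway, *Alox15*, *Alox5*, *Alox5ap*, *Ltc4s*, *Ptgs1*, *Ptgs2*, *Ptges*, *Hpgds*, *Cysltr1* and *Cysltr2*, taken by symbol from the 34638 genes of the expression table. RNA-seq of whole lung was performed in 9 wild-type C57BL/6 mice, 3 in each of 3 groups. The control group received intratracheal PBS (PBS mice). The second group received recombinant mouse IL-33 into the trachea once a day from day 0 to day 3, 0.5 µg each time (IL-33 mice). The other group had the same IL-33 challenges and, before them, an intraperitoneal injection of LM8 at 10 mg/kg (IL-33+LM8 or LM8-treated mice). LM8 is a compound known here by its code name and described as an inhibitor of MyD88, the adaptor through which the IL-33 receptor signals. For the IL-33 model the methods describe young adult female mice and lungs taken the day after the last challenge. Sex and age of the LM8-treated mice, and whether the other mice received the LM8 vehicle, were not given in the sources used here. No group with LM8 alone was analysed here, so differences between IL-33+LM8 and IL-33 mice are differences under IL-33.

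Eicosanoids are made from arachidonic acid that phospholipases free from membranes. Lipoxygenases convert it into leukotrienes and hydroxy fatty acids, and cyclooxygenases convert it into prostaglandin H2, from which terminal synthases make the separate prostaglandins. Cysteinyl leukotrienes, made by mast cells, eosinophils and macrophages, contract airway smooth muscle and draw eosinophils into the airway, and prostaglandin D2 and prostaglandin E2 act on the same tissue through receptors of their own.

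In IL-33 mice, 8 of the 10 genes were higher than in PBS mice by at least 2-fold, with *Alox15* far ahead of the rest at a log2 fold change of 7.02 ± 0.20 (standard error). *Ptgs2*, the inducible cyclooxygenase, was the 1 gene that was lower. In IL-33+LM8 mice the genes parted. *Alox15*, *Alox5*, *Ptgs1*, *Hpgds* and both leukotriene receptors lay below their IL-33 level, *Ptgs2* lay above it, and *Alox5ap* and *Ptges* showed no detectable difference from it. Of these differences only that of *Alox15* reached 2-fold, and those of *Hpgds*, *Cysltr1* and *Cysltr2* depended on single mice, as given below. Levels are given as FPKM (fragments per kilobase of transcript, scaled to the mapped fragments of the library), which allows genes to be compared per length. A gene was called where the quasi-likelihood test of edgeR gave a p under 0.05, adjusted by Benjamini-Hochberg over all genes tested, and the log2 fold change was at least 1 in size. Library totals ranged from 53877663 to 90607218 counts. Libraries of 1 group differed from each other by more than counting noise.

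**Figure D1:**
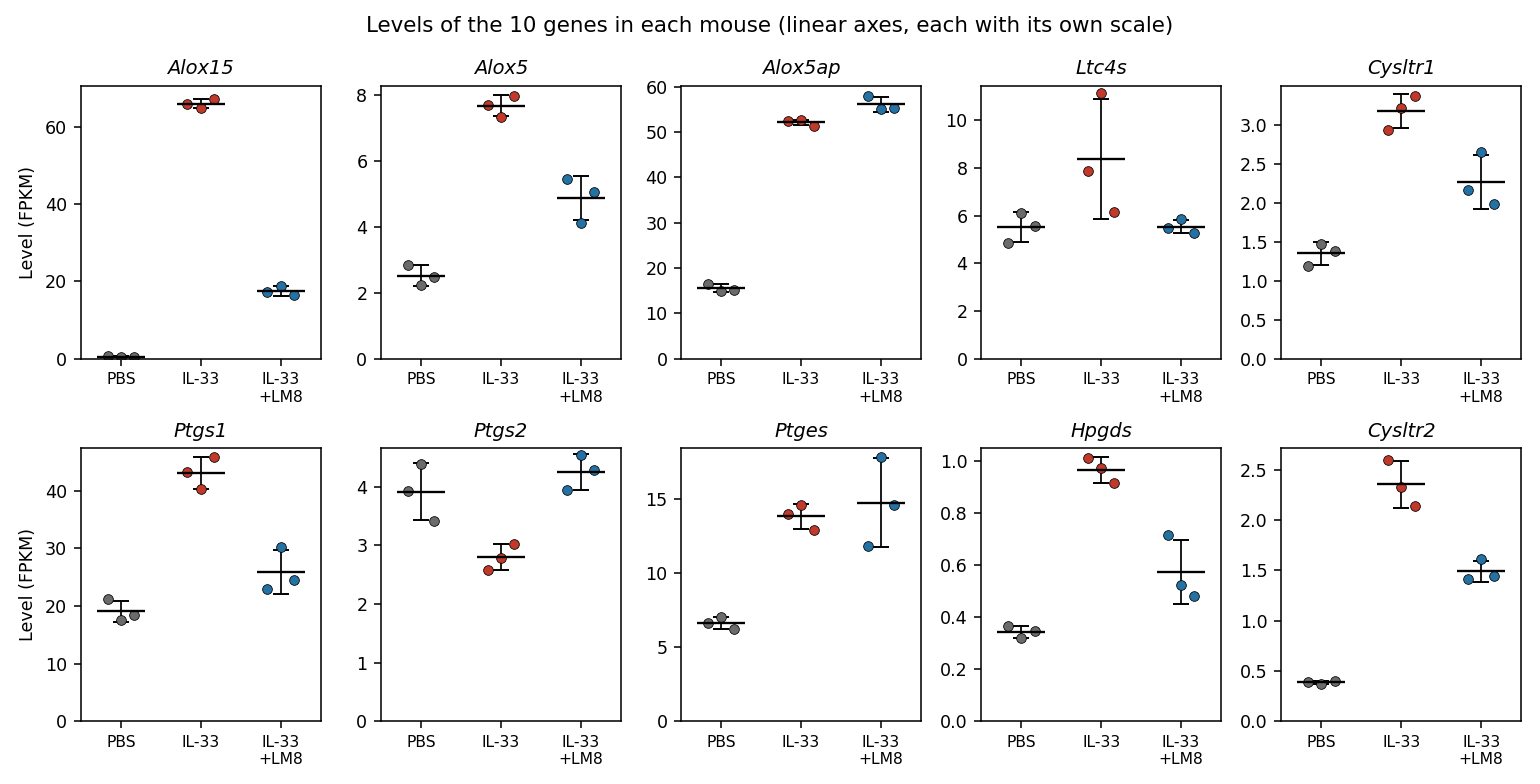
FPKM of each of the 10 genes in each mouse, 1 panel a gene with its own linear axis from 0. Points are mice, horizontal lines are group means and bars are SDs (n = 3). *Alox15* ran from below 1 FPKM in PBS mice to 66.0 in IL-33 mice and 17.5 in LM8-treated mice, while *Alox5ap* and *Ptges* stayed high with LM8 and *Ptgs2* was lowest in IL-33 mice.

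Upstream sequence is shown for 4 of the genes because they form the contrasts described below: the cyclooxygenase pair *Ptgs1* and *Ptgs2*, which moved in opposite directions, *Ptges*, which showed no detectable difference with LM8, and *Cysltr2*, which of the 2 receptors among the 10 genes had the greater difference after IL-33. The RefSeq promoter table (GRCm38.p6) held 7 of the 10 genes, and *Alox15*, *Alox5ap* and *Cysltr1* were not among them. Each sequence is the 250 bases before the annotated start, written 5′ to 3′ on the gene's own strand, at chr1:150099781-150100030 (plus strand) for *Ptgs2*, chr2:36230176-36230425 (plus strand) for *Ptgs1*, chr2:30903298-30903547 (minus strand) for *Ptges* and chr14:73049115-73049364 (minus strand) for *Cysltr2*. Capitals mark matches to the motifs searched.
Ptgs2: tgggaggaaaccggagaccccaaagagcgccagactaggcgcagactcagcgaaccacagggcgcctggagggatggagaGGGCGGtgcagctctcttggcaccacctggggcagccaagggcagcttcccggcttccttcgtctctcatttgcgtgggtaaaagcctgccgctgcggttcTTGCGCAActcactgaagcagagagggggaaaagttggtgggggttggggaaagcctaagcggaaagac
Ptgs1: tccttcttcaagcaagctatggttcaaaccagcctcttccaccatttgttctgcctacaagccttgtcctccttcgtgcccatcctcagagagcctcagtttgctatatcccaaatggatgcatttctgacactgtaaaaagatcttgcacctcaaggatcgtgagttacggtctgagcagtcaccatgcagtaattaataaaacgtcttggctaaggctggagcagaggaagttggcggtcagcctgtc
Ptges: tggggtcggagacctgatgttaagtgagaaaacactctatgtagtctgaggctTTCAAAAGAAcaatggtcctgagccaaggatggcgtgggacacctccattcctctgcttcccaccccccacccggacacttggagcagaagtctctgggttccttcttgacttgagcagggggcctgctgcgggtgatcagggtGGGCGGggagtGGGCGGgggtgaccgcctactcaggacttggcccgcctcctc
Cysltr2: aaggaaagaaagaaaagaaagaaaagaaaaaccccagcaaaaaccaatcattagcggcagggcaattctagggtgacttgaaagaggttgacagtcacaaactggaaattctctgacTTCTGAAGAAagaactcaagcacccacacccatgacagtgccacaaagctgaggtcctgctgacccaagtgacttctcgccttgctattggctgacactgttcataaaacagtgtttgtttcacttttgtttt

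Both strands were searched for a STAT motif (TTCNNNNGAA), an NF-kB motif (GGGNNTTTCC), a CRE (TGACGTCA), a C/EBP motif (TTGCNNAA), a GATA motif, a TATA box and a GC box (GGGCGG). The GATA motif was searched for by the letters AGATAA. The TATA box was searched for only in its strict form, which is spelled TATAAA. *Ptgs2* held the C/EBP letters TTGCGCAA 69 to 62 bases before its start and 1 GC box. *Ptges* held the STAT letters TTCAAAAGAA 197 to 188 bases before its start and 2 GC boxes. *Cysltr2* held the STAT letters TTCTGAAGAA 133 to 124 bases before its start. Of the genes not printed, *Hpgds* held TTATGCAA, the C/EBP motif read from the other strand, and *Alox5* held 1 GC box. *Ptgs1* and *Ltc4s* held none of the 7 motifs, which says only that these letters are not in this window. Among all 32851 promoters of the table, the STAT motif occurred in 5.85%, the C/EBP motif in 9.56% and the GC box in 32.7%. A GC box was thus common, and the STAT and C/EBP motifs were less so. The other motifs occurred in 1.41% (NF-kB), 1.55% (CRE), 9.99% (GATA) and 12.4% (TATA box) of promoters and in none of the 7 sequences. The *Ptgs2* sequence had a GC content of 61.6% and 13 CpG dinucleotides, and the *Ptgs1* sequence 48.0% and 5, against medians of 52.4% and 6 over the table. A match describes the sequence and is neither a binding site nor a cause.

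The first comparison asked what IL-33 did to the pathway. Of the 10 genes, 8 were called higher and 0 lower, in a background of 10.8% of 16831 genes called higher and 6.24% called lower. By the adjusted p alone, 8 were higher, 1 was lower and 1 did not pass, against 27.4% of genes higher and 27.2% lower. The median log2 fold change of the 10 genes was 1.36 and that of all genes tested was -0.0053. All 10 genes met the expression filter, a mean of at least 0.5 FPKM over the 9 mice, but *Hpgds* (0.344) and *Cysltr2* (0.386) were below 0.5 FPKM in PBS mice and entered through the IL-33 groups, and *Alox15* (0.504) stood at that level. Their differences are therefore not independent of having been tested. The 10 genes were also chosen with earlier results of these data known, so the counts describe these genes and do not test the pathway.

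The second comparison asked how the IL-33 levels differed when LM8 was given. Of the 10 genes, 0 were called higher and 1, *Alox15*, lower, where 1.46% and 3.93% of 16831 genes were called. By the adjusted p alone, 1 was higher, 6 were lower and 3 did not pass, against 12.6% and 13.9% of genes. The median log2 fold change was -0.62, and -0.0062 over all genes tested. Against PBS, IL-33+LM8 mice had 4 of the genes called higher and 0 lower, with 5.87% and 1.46% of 16829 genes called. By the adjusted p alone 8 were higher, 0 lower and 2 did not pass, where the background was 16.3% and 13.4%. The median log2 fold change of the 10 genes was 0.86 and that of all genes 0.0035. The 3 comparisons share mice in pairs and are not independent of each other, and the p-values measure the spread between these mice. In whole lung, fewer cells of a type and less RNA per cell cannot be told apart.

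**Figure D2:**
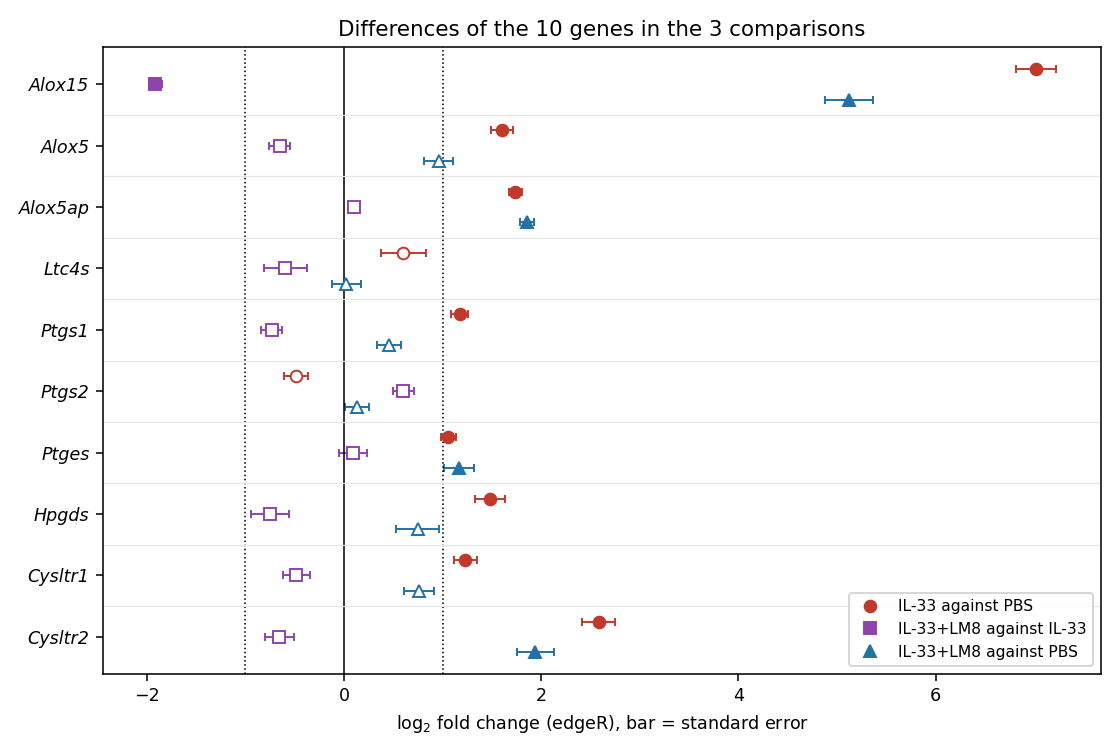
log2 fold change of each of the 10 genes in IL-33 against PBS (circles), IL-33+LM8 against IL-33 (squares) and IL-33+LM8 against PBS (triangles), with standard errors from edgeR. Filled symbols are called (adjusted p under 0.05 and a log2 fold change of at least 1 in size, dotted lines) and open symbols are not. The 8 filled circles lie right of 1, and the 1 filled square is *Alox15* at -1.91.

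*Alox15* encodes the 12/15-lipoxygenase, which oxygenates arachidonic and linoleic acid to hydroxy fatty acids and takes part in lipoxin formation (chromosome 11, minus strand, chr11:70234978-70242857 in the coordinates of the table, which names no build). It was at 0.628, 0.327 and 0.556 FPKM in the 3 PBS mice, at 66.0, 64.8 and 67.3 in the 3 IL-33 mice and at 17.2, 18.9 and 16.4 in the 3 IL-33+LM8 mice. The groups did not overlap in any pair, and the spread within a group was small beside the distance between groups. These levels rest on 101, 52 and 105 counts in PBS mice and on 11073, 9956 and 9287 in IL-33 mice. In the quasi-likelihood test of edgeR, with p adjusted by Benjamini-Hochberg, *Alox15* rose after IL-33 by 7.02 ± 0.20 on the log2 scale (adjusted p = 1e-06). With LM8 it fell by 1.91 ± 0.07 against IL-33 (adjusted p = 3.3e-05). It was still 5.12 ± 0.24 above PBS (adjusted p = 2.9e-05). In FPKM, 25.9% ± 1.14 (standard error) of the difference between IL-33 and PBS mice was present with LM8.

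*Alox5* encodes 5-lipoxygenase, the enzyme that starts leukotriene synthesis (chr6:116387038-116438139, minus strand). Its levels were 2.85, 2.23 and 2.48 FPKM in PBS mice, 7.68, 7.34 and 7.97 in IL-33 mice and 5.45, 4.13 and 5.04 in LM8-treated mice. The 3 groups were separate, with the LM8-treated mice between the other two. The log2 fold change was 1.60 ± 0.11 after IL-33 (edgeR adjusted p = 2.6e-05), and *Alox5* fell by 0.65 ± 0.11 with LM8 (adjusted p = 0.0041), below the 2-fold minimum for a call. Against PBS the log2 fold change was 0.96 ± 0.15 (adjusted p = 0.0032). That value reached 1.07, and a call, without PBS mouse 1 or without IL-33+LM8 mouse 2.

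*Alox5ap* encodes FLAP, the membrane protein that presents arachidonic acid to 5-lipoxygenase (chr5:149201577-149224963, plus strand). It was at 16.6, 15.0 and 15.2 FPKM in PBS mice, at 52.4, 52.7 and 51.4 in IL-33 mice and at 58.1, 55.1 and 55.4 in LM8-treated mice. Both IL-33 groups lay far above PBS, and each LM8-treated mouse was slightly above each IL-33 mouse. *Alox5ap* rose by 1.74 ± 0.06 on the log2 scale after IL-33 (edgeR adjusted p = 2e-06) and was 1.86 ± 0.07 above PBS with LM8 (adjusted p = 1.5e-05). The log2 difference between IL-33+LM8 and IL-33 mice was 0.11 ± 0.05 (adjusted p = 0.15), which did not pass. The RNA of the enzyme and that of its partner protein therefore had unequal differences, and protein was not measured in these data. The ratio of *Alox5ap* to *Alox5* FPKM within a mouse was 6.24 ± 0.48 (SD, n = 3) with PBS, 6.82 ± 0.36 with IL-33 and 11.7 ± 1.47 with LM8. The ratios of the LM8-treated mice were above those of both other groups without overlap (two-sided exact permutation p = 0.1, the smallest that 3 against 3 mice can give), and those of IL-33 and PBS mice overlapped (exact permutation p = 0.2).

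*Ltc4s* encodes leukotriene C4 synthase, which joins glutathione to leukotriene A4 and so commits the pathway to cysteinyl leukotrienes (chr11:50127288-50129443, minus strand). Its levels were 4.86, 6.10 and 5.58 FPKM in PBS mice, 7.87, 11.1 and 6.17 in IL-33 mice and 5.48, 5.86 and 5.29 in LM8-treated mice. The IL-33 mice were each above every mouse of the other groups, but they were spread widely, with mouse 2 highest and mouse 3 just above the PBS range. The log2 fold change was 0.60 ± 0.23 after IL-33 (edgeR adjusted p = 0.057), -0.60 ± 0.22 with LM8 against IL-33 (adjusted p = 0.084) and 0.02 ± 0.15 with LM8 against PBS (adjusted p = 0.92). None passed. Without IL-33 mouse 3 the first 2 passed the adjusted p (0.023 and 0.041), as they did in DESeq2 (0.018 and 0.032). *Ltc4s* shares 1664 bases with the opposite-strand gene *Gm26542*, whose largest count in a mouse was 146 against 324 to 710 counts of *Ltc4s*. *Alox5ap*, *Ptgs1*, *Hpgds* and *Cysltr1* also overlap opposite-strand genes, whose mean levels were at most 1.07 FPKM. Use of strand in the counting was not given in the sources used here, so reads of such partners cannot be told apart.

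Relative to *Alox5*, the RNA of the downstream synthase was lower in both IL-33 groups. The ratio of *Ltc4s* to *Alox5* FPKM was 2.23 ± 0.52 (SD, n = 3) in PBS mice, 1.11 ± 0.38 in IL-33 mice and 1.16 ± 0.23 in LM8-treated mice. PBS mice did not overlap either IL-33 group (exact permutation p = 0.1 each), and the IL-33 groups overlapped (exact permutation p = 0.9). The ratio of *Alox15* to *Alox5*, the 2 lipoxygenases among the genes, went from 0.197 ± 0.044 in PBS mice to 8.62 ± 0.198 in IL-33 mice and 3.66 ± 0.793 in LM8-treated mice, with no overlap between groups.

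**Figure D3:**
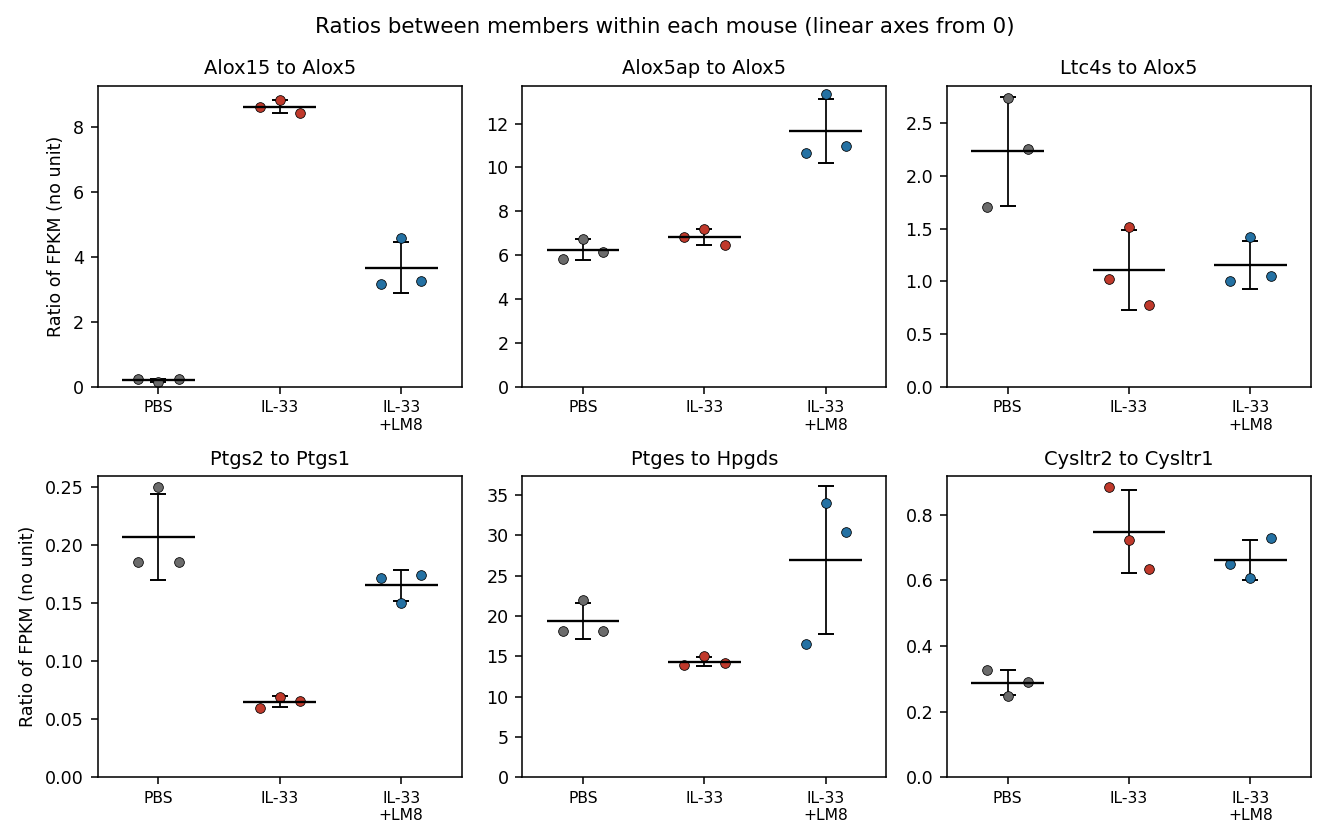
Ratios of FPKM between members within each mouse, on linear axes from 0. Points are mice, lines are means and bars are SDs (n = 3). *Alox5ap* to *Alox5* is highest in the LM8-treated mice, at 10.7 to 13.3, and *Ptgs2* to *Ptgs1* is lowest in the IL-33 mice, at 0.0598 to 0.0692.

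*Ptgs1* and *Ptgs2* encode cyclooxygenase-1 and cyclooxygenase-2, the constitutive and the inducible enzyme that make prostaglandin H2 (chr2:36120438-36142284 and chr1:149975782-149983978, plus strand). *Ptgs1* was at 21.1, 17.6 and 18.5 FPKM in PBS mice, at 43.2, 40.3 and 45.8 in IL-33 mice and at 23.0, 30.2 and 24.5 in LM8-treated mice. *Ptgs2* was at 3.92, 4.39 and 3.42 FPKM in PBS mice, at 2.58, 2.79 and 3.02 in IL-33 mice and at 3.94, 4.54 and 4.28 in LM8-treated mice. The IL-33 mice were thus the highest of all mice for *Ptgs1* and the lowest of all mice for *Ptgs2*, without overlap. *Ptgs2* of the PBS and IL-33+LM8 mice overlapped, and *Ptgs1* of these groups did not.

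*Ptgs1* rose by 1.17 ± 0.09 on the log2 scale after IL-33 (edgeR adjusted p = 3.3e-05) and fell by 0.73 ± 0.11 with LM8 against IL-33 (adjusted p = 0.0027). Its log2 difference from PBS with LM8 was 0.46 ± 0.12 (adjusted p = 0.030), and the adjusted p was 0.087 without PBS mouse 2, 0.081 without PBS mouse 3, 0.053 without IL-33+LM8 mouse 2 and 0.058 without IL-33+LM8 mouse 3. *Ptgs2* fell by 0.48 ± 0.12 after IL-33 (edgeR adjusted p = 0.013) and rose by 0.60 ± 0.10 with LM8 against IL-33 (adjusted p = 0.0051). Both differences were below 2-fold. With LM8 it was 0.13 ± 0.12 above PBS (adjusted p = 0.44), which did not pass. The ratio of *Ptgs2* to *Ptgs1* FPKM was 0.207 ± 0.037 (SD, n = 3) in PBS mice, 0.0650 ± 0.0048 in IL-33 mice and 0.165 ± 0.013 in LM8-treated mice, and no pair of groups overlapped (exact permutation p = 0.1 each).

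*Ptges* encodes the microsomal synthase of prostaglandin E2 (chr2:30779483-30793309, minus strand). It was at 6.62, 7.03 and 6.26 FPKM in PBS mice, at 14.0, 14.6 and 12.9 in IL-33 mice and at 11.8, 17.8 and 14.6 in LM8-treated mice. Both IL-33 groups were above PBS, and the LM8-treated mice lay on both sides of the IL-33 mice. The log2 fold change was 1.06 ± 0.07 after IL-33 (edgeR adjusted p = 2.7e-05), 0.09 ± 0.14 with LM8 against IL-33 (adjusted p = 0.69) and 1.17 ± 0.15 with LM8 against PBS (adjusted p = 0.0015). *Ptges* thus kept its distance from PBS, as *Alox5ap* did, while *Ptgs1*, which acts before it, lay nearer to PBS.

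*Hpgds* encodes the hematopoietic prostaglandin D synthase of mast cells and Th2 cells (chr6:65094277-65121892, minus strand). It was the lowest of the 10 genes in each group, at 0.365, 0.320 and 0.346 FPKM in PBS mice, 1.01, 0.972 and 0.914 in IL-33 mice and 0.715, 0.525 and 0.480 in LM8-treated mice. No groups overlapped. *Hpgds* rose by 1.48 ± 0.15 on the log2 scale after IL-33 (edgeR adjusted p = 0.00017). The log2 difference with LM8 against IL-33 was -0.75 ± 0.19 (adjusted p = 0.024), and it lost the adjusted p without any 1 of IL-33 mouse 1 (0.083), 2 (0.062) or 3 (0.064) and without IL-33+LM8 mouse 2 (0.060) or 3 (0.085). The log2 difference with LM8 against PBS was 0.75 ± 0.22 (adjusted p = 0.038), and it lost the adjusted p without any 1 of the 6 mice (0.053 to 0.096). The ratio of *Ptges* to *Hpgds* FPKM was 19.4 ± 2.23 (SD, n = 3) in PBS mice, 14.3 ± 0.613 in IL-33 mice and 26.9 ± 9.20 in LM8-treated mice, the last from 16.5 to 34.0. The IL-33 mice did not overlap either other group (exact permutation p = 0.1 each).

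The receptors of the cysteinyl leukotrienes are encoded by *Cysltr1*, whose product prefers leukotriene D4, and *Cysltr2*, whose product binds leukotriene C4 and D4 alike (chrX:105617952-105647285 and chr14:73263043-73286554, minus strand). *Cysltr1* was at 1.19, 1.47 and 1.38 FPKM in PBS mice, at 2.94, 3.22 and 3.36 in IL-33 mice and at 2.17, 2.65 and 1.98 in LM8-treated mice. *Cysltr2* was at 0.390, 0.367 and 0.400 FPKM in PBS mice, at 2.60, 2.33 and 2.14 in IL-33 mice and at 1.41, 1.61 and 1.45 in LM8-treated mice. For both receptors the 3 groups were separate, and the LM8-treated mice stood in the middle.

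*Cysltr2* rose after IL-33 by 2.58 ± 0.17 on the log2 scale and *Cysltr1* by 1.23 ± 0.12 (edgeR adjusted p = 1.8e-05 and 0.00012). The ratio of *Cysltr2* to *Cysltr1* FPKM went from 0.288 ± 0.039 (SD, n = 3) in PBS mice to 0.748 ± 0.127 in IL-33 mice without overlap (exact permutation p = 0.1), and it was 0.662 ± 0.062 in IL-33+LM8 mice, which overlapped the IL-33 mice (exact permutation p = 0.5). With LM8 against IL-33, the log2 difference was -0.66 ± 0.15 for *Cysltr2* (adjusted p = 0.015) and -0.48 ± 0.13 for *Cysltr1* (adjusted p = 0.035). The *Cysltr2* difference lost the adjusted p without IL-33 mouse 1 (0.066) or IL-33+LM8 mouse 3 (0.060). The *Cysltr1* difference lost it without IL-33 mouse 1 (0.055), 2 (0.090) or 3 (0.12) and without IL-33+LM8 mouse 1 (0.091) or 3 (0.11). Against PBS, *Cysltr2* was 1.94 ± 0.18 higher with LM8 (adjusted p = 0.00046) and *Cysltr1* 0.76 ± 0.15 higher (adjusted p = 0.0099).

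The share of the IL-33 difference that was present with LM8 set the 8 called genes apart as a description. It was lowest for *Alox15* (25.9% ± 1.14, standard error) and *Ptgs1* (28.4% ± 9.84). It was 37.0% ± 11.8 for *Hpgds*, 45.8% ± 8.02 for *Alox5*, 50.4% ± 11.7 for *Cysltr1* and 56.0% ± 4.95 for *Cysltr2*. For *Alox5ap* it was 111% ± 2.85 and for *Ptges* 112% ± 25.3, so neither lay nearer to PBS than the IL-33 mice did. Neighbours in the order from *Ptgs1* up to *Cysltr2* differed by less than their combined errors.

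**Figure D4:**
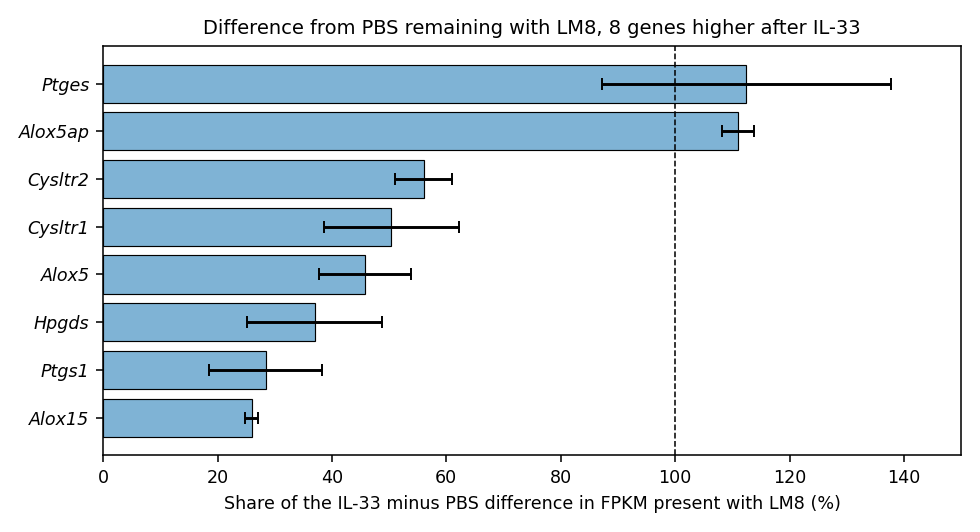
Share of the difference in mean FPKM between IL-33 and PBS mice that was present in IL-33+LM8 mice, in percent, for the 8 genes called higher after IL-33. Bars are the shares, lines are standard errors from the spread between mice (n = 3 a group), and the dashed line at 100% is no difference from IL-33 mice. *Alox15* is at 25.9% and *Alox5ap* at 111%.

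By mean FPKM, which is per length, the order of the 10 genes differed between groups. In PBS mice the highest mean FPKM was that of *Ptgs1* (19.1), before *Alox5ap* (15.6), *Ptges* (6.63), *Ltc4s* (5.51), *Ptgs2* (3.91), *Alox5* (2.52) and *Cysltr1* (1.35), and neighbours in this order did not overlap. *Alox15* (0.504) and *Cysltr2* (0.386) overlapped, above *Hpgds* (0.344). In IL-33 mice *Alox15* (66.0) was first, before *Alox5ap* (52.1), *Ptgs1* (43.1) and *Ptges* (13.8), each separate from the next. *Ltc4s* (8.39) and *Alox5* (7.66) overlapped, as did *Cysltr1* (3.17) with *Ptgs2* (2.80) and *Ptgs2* with *Cysltr2* (2.35). With LM8 *Alox5ap* (56.2) and *Ptgs1* (25.9) led, *Alox15* (17.5) overlapped *Ptges* (14.7), and *Ltc4s* (5.54), *Alox5* (4.87) and *Ptgs2* (4.25) overlapped in turn.

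The wider pathway was followed in a list of 48 other eicosanoid genes, of which 37 passed the filter. After IL-33, 9 were called higher and 4 lower, with a median log2 fold change of 0.13. With LM8 against IL-33, 3 were called higher and 4 lower (median -0.03), and with LM8 against PBS 10 were higher and 2 lower (median 0.11). The share of all genes called in each direction, given above, is the background of these counts as well. This list too was chosen with earlier results of these data known, so its counts are a description. Without IL-33+LM8 mouse 1, 4 instead of 7 genes were called against IL-33. Altogether 15 of the 48 were called in at least 1 comparison. *Pla2g4c* and *Alox12e* were below 0.5 FPKM in PBS mice and entered the test through the IL-33 groups, and *Ggt1*, at 0.486 in PBS mice and 0.284 in IL-33 mice, passed the filter only through the LM8-treated mice.

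Among the phospholipases that free arachidonic acid, *Pla2g4c*, a cytosolic one, was at 0.213 to 0.299 FPKM in PBS mice, 6.18 to 6.57 in IL-33 mice and 5.55 to 8.04 in LM8-treated mice. Like *Alox5ap* and *Ptges*, it rose after IL-33 (log2 fold change 4.67 ± 0.16, edgeR adjusted p = 1.5e-06) and remained above PBS with LM8 (4.76 ± 0.21, adjusted p = 2.4e-05). *Pla2g2d*, a secreted phospholipase, was at 0.567 to 0.751, 2.41 to 4.29 and 0.136 to 0.660 FPKM in the same order, and it rose by 2.26 ± 0.26 and fell with LM8 by 3.05 ± 0.53 (edgeR adjusted p = 0.00027 and 0.0050). The other lipoxygenase *Alox12e* had 20, 0 and 0 counts in PBS mice, 208, 328 and 287 in IL-33 mice and 176, 119 and 239 in LM8-treated mice. It was called higher in both comparisons with PBS, but the size of the fitted difference depends on PBS counts at the floor, and the call with LM8 (adjusted p = 0.025) was lost in DESeq2 (0.071) and without PBS mouse 2 (0.056) or any 1 LM8-treated mouse (0.052 to 0.057).

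On the leukotriene B4 side, *Ltb4r1*, which encodes its high-affinity receptor BLT1, was at 1.49 to 1.82 FPKM in PBS mice, 19.2 to 22.0 in IL-33 mice and 10.5 to 10.7 in LM8-treated mice. Its log2 fold change was 3.65 ± 0.12 after IL-33 (edgeR adjusted p = 1.4e-06), -0.96 ± 0.08 with LM8 against IL-33 (adjusted p = 0.00028) and 2.70 ± 0.13 with LM8 against PBS (adjusted p = 2.8e-05). *Cyp4f18*, which encodes an enzyme that inactivates leukotriene B4, showed the same order of groups, at 4.98 to 5.82, 39.8 to 42.2 and 16.1 to 17.1 FPKM. It rose by 2.95 ± 0.08 and fell with LM8 by 1.30 ± 0.06 (edgeR adjusted p = 1e-06 and 3.8e-05). Of the gamma-glutamyl transferases that turn leukotriene C4 into D4, *Ggt5* was at 1.66 to 1.79, 3.55 to 4.12 and 3.55 to 4.09 FPKM and was called higher in both IL-33 groups against PBS. *Ggt1* was at 0.335 to 0.612, 0.250 to 0.301 and 1.23 to 1.75 FPKM and was called higher with LM8 against both other groups (log2 fold change 2.38 ± 0.21 against IL-33, edgeR adjusted p = 0.00034), but it was tested only because the LM8-treated mice, the group where it is high, lifted its mean over the filter.

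*Fpr2*, which encodes a formyl peptide receptor that also binds lipoxin A4, differed in direction between comparisons. It was at 4.71 to 5.51 FPKM in PBS mice, 1.70 to 2.39 in IL-33 mice and 12.4 to 15.9 in LM8-treated mice, without overlap. It fell after IL-33 by 1.41 ± 0.19 (edgeR adjusted p = 0.00060), and with LM8 it rose by 2.90 ± 0.18 against IL-33 (adjusted p = 8.8e-05) and 1.51 ± 0.13 against PBS (adjusted p = 0.00030). *Gpr17*, a receptor related to the cysteinyl leukotriene receptors, fell after IL-33 by 1.33 ± 0.21 (adjusted p = 0.0015), from 2.20 to 3.54 FPKM in PBS mice down to 0.988 to 1.38.

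Among the prostanoid genes, *Tbxas1* (thromboxane A synthase) and *Ptgir* and *Ptger4* (the receptors of prostacyclin and of prostaglandin E2) rose after IL-33. *Tbxas1* was at 0.752 to 1.03 FPKM in PBS mice, 6.91 to 7.33 in IL-33 mice and 3.24 to 3.96 in LM8-treated mice. *Ptgir* was at 1.12 to 1.71, 9.97 to 12.2 and 5.19 to 5.92 FPKM, and *Ptger4* at 0.705 to 1.13, 4.29 to 5.29 and 2.65 to 3.24 FPKM. Their log2 fold changes after IL-33 were 2.99 ± 0.12, 3.05 ± 0.18 and 2.47 ± 0.18 (edgeR adjusted p = 2.9e-06, 1.2e-05 and 3.5e-05). The LM8-treated mice lay between the other groups for all 3 genes, and the calls of *Tbxas1* and *Ptgir* against IL-33 stood at the 2-fold minimum (-1.02 ± 0.09 and -1.0 ± 0.10). The *Tbxas1* call was lost without IL-33 mouse 2 or IL-33+LM8 mouse 1 or 3 (to -0.96), and the *Ptgir* call without IL-33 mouse 1 or 3 or IL-33+LM8 mouse 1 or 3 (to -0.92) and in DESeq2. In settings with every mouse kept, the smallest differences were -0.854 for *Tbxas1* and -0.886 for *Ptgir*, below 2-fold. Under filterByExpr, median-of-ratios factors, the fit of all 9 mice and the replicate block, 3 instead of 4 of the other genes were called lower.

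*Hpgd*, which encodes the dehydrogenase that inactivates prostaglandins, had the greatest difference in FPKM of the pathway and in the other direction. Its levels were 402, 518 and 477 FPKM in PBS mice, 144, 138 and 151 in IL-33 mice and 329, 269 and 303 in LM8-treated mice. It fell after IL-33 by 1.69 ± 0.09 (edgeR adjusted p = 9.9e-06) and rose with LM8 by 1.06 ± 0.08 against IL-33 (adjusted p = 0.00020), a call that stood at 0.99 and was lost without IL-33+LM8 mouse 1. *Ptgfr*, the prostaglandin F receptor, fell after IL-33 by 1.90 ± 0.16 (adjusted p = 7e-05), from 3.21 to 3.53 FPKM down to 0.761 to 1.13. With LM8 it was at 1.01 to 2.14 FPKM, called lower than PBS by 1.07 ± 0.24 (adjusted p = 0.016), which became 0.82 without IL-33+LM8 mouse 2. *Ptgds*, the other prostaglandin D synthase, was at 4.13, 4.52 and 0.744 FPKM in PBS mice, at 0.678, 5.23 and 0.951 in IL-33 mice and at 0.688, 0.565 and 0.470 in LM8-treated mice. Single mice set these levels, and its lower call with LM8 against PBS (adjusted p = 0.025) was lost without PBS mouse 1 (0.075), PBS mouse 2 (0.075) or any 1 LM8-treated mouse (0.053 to 0.081).

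*Ptgdr*, the prostaglandin D2 receptor DP1, was below the expression filter. It had 0 counts in all 3 PBS mice, 195, 169 and 170 in IL-33 mice and 43, 122 and 87 in LM8-treated mice. Against a floor of 3 counts per PBS library this is at least 65.0-fold higher per library count in IL-33 mice and at least 26.5-fold higher in IL-33+LM8 mice. It was chosen for mention after its values were seen, and no test was made.

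**Figure D5:**
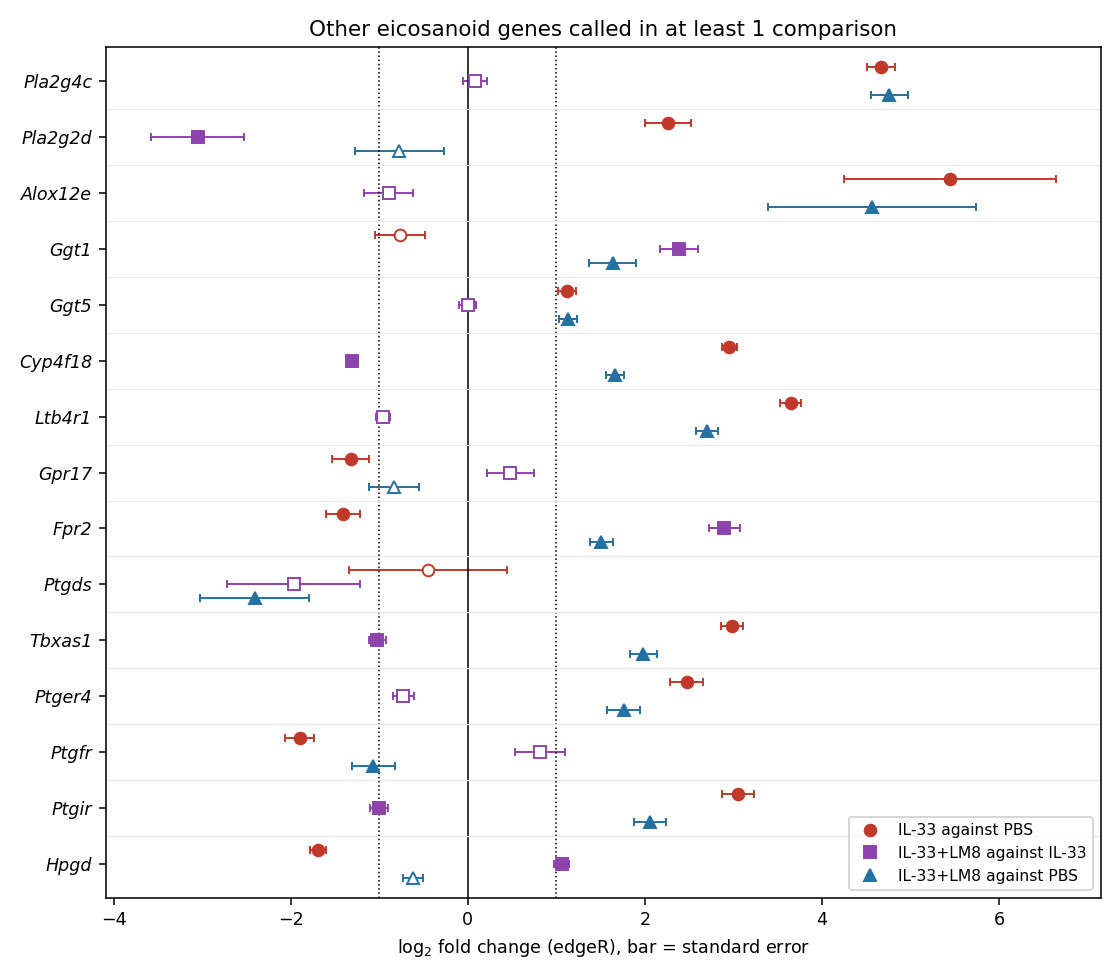
log2 fold change with its standard error (edgeR) for the 15 other eicosanoid genes called in at least 1 comparison, in IL-33 against PBS (circles), IL-33+LM8 against IL-33 (squares) and IL-33+LM8 against PBS (triangles). Filled symbols are called, open symbols are not, and dotted lines mark a 2-fold difference. *Fpr2* lies at -1.41 after IL-33 and at 2.90 with LM8 against IL-33, and *Pla2g4c* at 4.67 and 0.08.

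Markers of cell types that can express these genes differed between the same groups, and their part in the differences was not tested. The 6 eosinophil markers summed to 3.82 to 4.45 FPKM in PBS mice, 40.3 to 45.7 in IL-33 mice and 8.42 to 9.09 in LM8-treated mice. Of the 5 tested, 5 rose and then 5 fell with LM8, and *Epx*, eosinophil peroxidase, had 0 counts in every PBS mouse. With LM8 the mean of *Siglecf* was 1.93 FPKM, below the 3.40 of PBS mice. Most of the sum in PBS mice was *Siglecf*, while *Prg2*, *Ear6* and *Ccr3* averaged 0.176, 0.0781 and 0.0505 FPKM there. The PBS sum therefore mainly gives the level of *Siglecf* and not of eosinophils. The alternatively activated macrophage markers summed to 261 to 337, 14137 to 15409 and 8163 to 12120 FPKM (6 of 6 called higher after IL-33, 2 lower with LM8). Most of this was *Retnla* (means 66.4, 10207.5 and 7992) and *Chil3* (means 203, 4354 and 1951), so the sum mainly gives the levels of these genes. *Retnla* did not pass with LM8 against IL-33 (log2 fold change -0.35, edgeR adjusted p = 0.17), and *Chil3* was called lower. The monocyte and interstitial macrophage markers summed to 60.5 to 69.7, 385 to 411 and 174 to 183 FPKM (4 of 6 higher, then 3 lower). Most of this was *C1qa* (means 26.2, 160 and 67.4) and *C1qb* (means 23.3, 186 and 74.9). By the adjusted p of edgeR alone, 5 were higher and *Cx3cr1* lower after IL-33 (log2 fold change -0.64, adjusted p = 0.0064). With LM8 against IL-33, 4 were lower and *Ly6c2* higher (0.34, adjusted p = 0.035). The markers of group 2 innate lymphoid cells and Th2 cells summed to 5.01 to 6.02, 51.3 to 64.5 and 20.8 to 24.7 FPKM (6 of 6 higher, then 3 lower). Each of these sums had the order of groups that *Alox15* showed. So did the sums of lymphocyte markers and of fibroblast and smooth muscle markers, given below.

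Neutrophil markers took another course, at 22.4 to 27.9 FPKM in PBS mice, 86.0 to 108 in IL-33 mice and 699 to 823 in LM8-treated mice (6 of 6 called higher, then 5 higher again with LM8). *Fpr2* and *Ggt1* had the same group highest, as did *Alox5ap* and the platelet sum given below. The means of *Ptgs2*, *Ptges* and *Pla2g4c* were also highest in the LM8-treated mice, which overlapped another group for each of them. After IL-33, unlike the neutrophil markers, *Fpr2* was called lower (log2 fold change -1.41) and *Ggt1* was not called (-0.77, edgeR adjusted p = 0.053). Mast cell markers summed to 24.2 to 26.7, 17.2 to 19.8 and 24.0 to 26.2 FPKM. Most of this was *Kit* (means 22.7, 15.0 and 22.2), so the sum mainly gives the level of that gene and not of mast cells. Of 3 tested, 0 were called in any comparison (by the adjusted p of edgeR alone, 1 higher and 2 lower after IL-33). The 3 basophil markers summed to at most 1.26 FPKM in a mouse and were not tested. Platelet markers summed to 13.1 to 16.2, 13.9 to 14.8 and 17.4 to 22.1 FPKM, but of 4 tested *Pf4* was called higher and *Ppbp* and *Gp9* lower after IL-33, and the last 2 were called higher with LM8 against IL-33. Tuft cell markers summed to at most 1.33 FPKM, with *Chat* at 0 counts in 7 of 9 mice. Alveolar macrophage markers added up to 106 to 121, 106 to 119 and 90.8 to 111 FPKM. Most of this was *Car4* in PBS and LM8-treated mice (means 80.9 and 67.6), and *Car4* (54.5) with *Atp6v0d2* (42.0) in IL-33 mice. The sum therefore mainly gives the levels of these genes and not of the cell type. Among these 6, *Atp6v0d2* and *Pparg* were called higher and *Marco* and *Krt79* lower after IL-33, and with LM8 against IL-33 *Marco* and *Krt79* were called higher and *Atp6v0d2* lower. B and T lymphocyte markers were at 33.8 to 40.5, 95.6 to 106 and 62.5 to 71.6 FPKM (3 of 6 called higher after IL-33, 0 called with LM8 against IL-33, where 3 were lower by the adjusted p of edgeR alone).

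Defining markers of lung were present in every mouse. Lung epithelial markers summed to 33118 to 35988 FPKM in PBS mice, 14396 to 15638 in IL-33 mice and 27288 to 29512 in LM8-treated mice (3 of 6 called lower after IL-33, then 1 higher with LM8), most of it *Sftpc* and *Scgb1a1*. Endothelial markers summed to 655 to 731, 426 to 469 and 656 to 668 FPKM (3 of 6 called lower after IL-33, and 0 called with LM8 against IL-33, where 6 were higher by the adjusted p of edgeR alone). Fibroblast and smooth muscle markers summed to 256 to 266, 387 to 418 and 331 to 363 FPKM, with members in both directions. After IL-33 *Col1a1* was called higher, from a mean of 33.6 to 149 FPKM, and *Pdgfra* lower, from 50.7 to 23.4, and by the adjusted p of edgeR alone 3 of the 6 were higher and 3 lower. The epithelial and endothelial sums were lower in IL-33 mice than in both other groups, as *Ptgs2* and *Hpgd* were. Their part in these differences was not tested.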

How the data were processed

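The expression table held, for each of the 9 lungs, a whole-number count and an FPKM value per gene. The counts were deposited by the authors without normalization. The FPKM values were deposited by the authors as levels scaled to transcript length and library size. The submitters' processing notes name HISAT2 2.0, StringTie 1.3.0, Bowtie 0.12.2 and mm10, without roles. The table itself names no build, and only 2.44% of the starts of 32643 shared genes lay within 1 base of GENCODE M21 (GRCm38), so its coordinates were not joined to that genome. Library totals were 53877663 to 90607218 counts, which leaves counting error small beside the spread between mice except for genes with few counts. Groups were taken from the treatment labels.

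Only the 6 mice compared entered a fit, made with edgeR 4.0.16 in R 4.3.3 (quasi-likelihood test, TMM factors), on genes with a mean of at least 0.5 FPKM over the 9 mice and a count above 0 in those 6, with Benjamini-Hochberg adjustment over all genes tested. A call needed an adjusted p under 0.05 and a log2 fold change of at least 1 in size. The fit was tested on simulated data. Single ratios were compared by two-sided exact permutation tests (scipy 1.17.1). Alternatives were no filter, filterByExpr, a mean of at least 5 FPKM, median-of-ratios factors, DESeq2 1.42.0, a fit of all 9 mice, no minimum fold change, limma 3.58.1 on log2(FPKM + 1) or log2(FPKM + 0.1), the replicate number as a block, and each mouse left out. Same-numbered IL-33+LM8 and PBS mice deviated together from their group means (r = 0.307, 0.322 and 0.672 across genes). So did IL-33+LM8 mouse 1 with PBS mouse 2 (0.169) and IL-33+LM8 mouse 2 with PBS mouse 1 (0.198). These values therefore do not show that the numbers pair the mice, and the labels do not say what a number marks.

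All 10 genes were named, with each gene of the wider list called in at least 1 comparison. Markers were summed as 14 lists of 81 genes, of which *Il25* was not analysed here. For *Dpep2*, with 2 entries, the entry of the higher mean FPKM was used. The 10 genes and the lists were chosen with earlier results of these data known.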

Additional observations from a re-analysis of the deposited data

How the results depend on the processing

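Among the log2 fold changes of the 10 genes under the alternatives, 428 values kept their direction and stayed called or not called. Another 4 lost a call, 2 gained one and 4 changed sign. A value below 2-fold counted as kept even where its adjusted p crossed 0.05. The 4 lost calls were all in limma on log2(FPKM + 1), for *Ptges* (0.96), *Hpgds* (0.55) and *Cysltr1* (0.83) after IL-33 and *Cysltr2* (0.84) with LM8 against PBS. The sign changes were in differences that had not passed. *Ltc4s* with LM8 against PBS, 0.02 in the report, was -0.0058 with a mean of at least 5 FPKM and -0.0486 to 0.106 with single mice left out. *Ptges* with LM8 against IL-33, 0.09 in the report, was -0.0733 to 0.232 with single mice left out. Some adjusted p values crossed 0.05 in other settings. *Hpgds* with LM8 against PBS was at 0.066 without a filter and at 0.12 and 0.13 in limma, *Cysltr1* with LM8 against IL-33 at 0.062 without a filter, and *Ltc4s* after IL-33 at 0.030 in the fit of all 9 mice. All 156 values of ratios and shares without single mice moved by less than the spread between mice. In groups this small, leaving out a mouse moves a group mean by less than the SD of that group. The limit was therefore almost certain to be met. These values do not test how far the ratios and shares depend on single mice.

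Counts of calls are given for all genes, the 10 genes and the 48 others. In IL-33 against PBS they were 2865, 8 and 13. A mean of at least 5 FPKM, which leaves 6 of the 10 genes in the test, gave 1176, 5 and 5, limma on log2(FPKM + 1), which shrinks low genes, gave 1741 and 5 for the first 2, and no minimum fold change gave 9193 for all genes and 26 for the others. For LM8-treated against IL-33 mice the counts were 907, 1 and 7. The higher FPKM minimum gave 304 and 3 for all genes and the others, limma 439 and 4, and no minimum fold change 4459, 7 and 17. With single mice left out, the others ranged from 4 to 9. For LM8-treated against PBS mice the counts were 1233, 4 and 12. The higher FPKM minimum gave 469 and 4 for all genes and the others, limma 588 and 7, and no minimum fold change 4997 for all genes and 8 for the 10 genes.

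With the replicate number as a block, the counts were 2841, 8 and 13 in IL-33 against PBS, 836, 1 and 6 for LM8-treated against IL-33 mice, and 1364, 4 and 12 for LM8-treated against PBS mice. In the first 2 comparisons same-numbered mice did not all deviate together (r -0.419, 0.28 and -0.282, and -0.38, 0.222 and -0.397). Against IL-33 the block took the adjusted p of *Cysltr1* to 0.059 and of *Cysltr2* to 0.051. The block changed no call of the 10 genes. Depth limits *Alox15*, *Cysltr2* and *Hpgds* most, with 52 to 172 counts in PBS mice.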

Other observations

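The genes whose profiles over the 9 mice lay nearest to those of 4 of the genes are given here as a description, with no statement on shared function or control. Likeness was the root mean square difference of log2(FPKM + 1) centred on the mean of the 9 mice, among genes tested in IL-33 against PBS. Nearest to *Alox15* were *Mmp12* (0.258), a macrophage elastase, *Ccl8* (0.265), a chemokine, and *Arg1* (0.452), arginase-1. *Mmp12* averaged 1.00 FPKM in PBS mice, 100.4 in IL-33 mice and 18.6 in LM8-treated mice, and *Arg1* 2.29, 248 and 48.7. Nearest to *Cysltr2* were *Naip2* (0.0640), *Litaf* (0.0651) and *Mybl2* (0.0704). Adding 1 to the FPKM shrinks the differences of low genes, so these neighbours did not rise by the same factor. From PBS to IL-33 mice the mean of *Cysltr2* went from 0.386 to 2.35 FPKM, and that of *Litaf* from 11.1 to 27.0. Nearest to *Alox5ap* were *Gda* (0.0601), *Padi4* (0.0890) and *Emilin2* (0.110), of which *Padi4*, a peptidylarginine deiminase, averaged 0.487, 3.47 and 4.01 FPKM. Nearest to *Alox5* were *Fgd3* (0.0506), *Arhgap25* (0.0897) and *Arhgap27os3* (0.0911).

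IL-33 mouse 1 deviated from its group mean together with PBS mouse 3 (r = 0.647 across genes) and IL-33+LM8 mouse 3 (r = 0.669), which carry another replicate number than it and the same number as each other (r = 0.672 between them). The labels give no batch for them. Each of these mice had the largest library total of its group. The totals were 73869252 counts for PBS mouse 3, 66029783 for IL-33 mouse 1 and 90607218 for IL-33+LM8 mouse 3. The part of depth in the shared deviation was not tested.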
